A study of Mus musculus with 6 samples.

Results

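The 10 genes described here encode enzymes and a scaffold of base excision repair: Apex1, Ogg1, Ung, Neil1, Nthl1, Mutyh, Polb, Xrcc1, Lig3 and Parp1. They were selected on the comparison of 8 months with 3 months in these same arrays, in which Apex1 was lower, to see whether Apex1 was lower alone or with its pathway. The values of the 10 genes between the ages are therefore a description, and no test of them is given. The array carried 23 probe sets whose single annotated gene was one of the 10, of 45037 probe sets without the manufacturer's controls. Of these 23, 15 reached the filter on weak signals, a log2 value of 4 in at least 3 of the 6 arrays, and they belonged to 8 genes. Nthl1 and Mutyh were read below the filter only.

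Each of 6 arrays held the RNA of 1 whole retina from a separate female DBA/2J mouse, 3 mice aged 3 months and 3 aged 8 months. DBA/2J is an inbred strain in which intraocular pressure rises with age and retinal ganglion cells are lost, and it is used as a mouse model of glaucoma. Final intraocular pressure was 17.5 ± 1.99 mmHg in the eyes of the younger group and 27.4 ± 2.67 mmHg in those of the older group (SD, n = 3 each). The labels name no engineered allele and no treatment in either group. Since the older animals were picked for raised pressure, age and pressure cannot be told apart. The retinas of 3 months and 8-month retina 1 were from left eyes, and 8-month retinas 2 and 3 from right eyes.

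Base excision repair removes small damaged or misplaced bases, such as oxidised guanine or uracil, from DNA. A DNA glycosylase cuts out the base, an AP endonuclease opens the strand at the empty site, a polymerase fills the gap and a ligase closes it, with PARP1 sensing the open strand and XRCC1 holding the complex together. Photoreceptors and ganglion cells consume much oxygen and do not divide, so they rely on this pathway to remove oxidised bases from nuclear and mitochondrial DNA. APEX1, also called APE1 or Ref-1, is the main AP endonuclease and also keeps several transcription factors in their reduced form.

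Apex1 lies on chromosome 14 of GRCm38.p6 at positions 50924949 to 50927188, head to head with Osgep, which encodes a tRNA-modifying enzyme. The annotated starts of the pair are separated by 55 bases. This interval is shown because both genes are read outward from it. The 100 bases before the annotated starts of Ung and Xrcc1, whose differences were close in size to that of Apex1, and of Parp1, which was nearly level, are given with it. All come from the RefSeq promoter table of GRCm38.p6, from chr14:50924894-50924948, chr5:114130266-114130365, chr7:24546599-24546698 and chr1:180568791-180568890 on the plus strand, written 5′ to 3′. Capitals mark matches to the motifs searched, on either strand.
Apex1 and Osgep: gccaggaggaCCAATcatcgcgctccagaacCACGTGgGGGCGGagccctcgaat
Ung: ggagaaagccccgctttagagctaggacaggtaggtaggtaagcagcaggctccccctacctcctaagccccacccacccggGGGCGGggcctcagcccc
Xrcc1: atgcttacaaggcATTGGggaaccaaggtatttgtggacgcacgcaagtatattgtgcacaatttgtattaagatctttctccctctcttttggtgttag
Parp1: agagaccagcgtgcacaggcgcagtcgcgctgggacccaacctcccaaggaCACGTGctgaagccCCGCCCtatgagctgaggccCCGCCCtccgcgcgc

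The motifs searched on both strands were CCAAT (the CCAAT box), GGGCGG (the GC box), CACGTG (an E-box), TGACGTCA (the cyclic AMP response element), TATAAA (the TATA box) and the palindromic NRF1 motif. None of the letters of one motif overlapped another in the printed stretches. The interval between Apex1 and Osgep held 1 CCAAT, 1 CACGTG and 1 GGGCGG. The upstream stretch of Ung held 1 GGGCGG, that of Xrcc1 held 1 CCAAT on the opposite strand, and that of Parp1 held 1 CACGTG and 2 GGGCGG on the opposite strand. Of the 10 genes, 9 had a window in the table, reaching 250 bases before to 50 bases after a start, and Polb was not matched. GGGCGG occurred in the windows of 7 of the 9 genes, CCAAT in 5, CACGTG in 3 and TATAAA in 1. Over all 32851 windows of that length the shares were 35.7% for GGGCGG, 37.4% for CCAAT, 7.15% for CACGTG and 13.6% for TATAAA. TGACGTCA and the NRF1 motif, found in 1.79% and 0.971% of all windows, matched 0 of the 9 genes.

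Apex1 was lower at 8 months in each of its 3 probe sets, by 0.38 to 0.64 on the log2 scale. In the probe set specific to it, 1416135_at, the 3-month retinas read 6.86, 6.66 and 6.84 and the 8-month retinas 5.88, 6.36 and 6.21 (log2 expression values, retinas 1 to 3). All 3 older retinas lay below all 3 younger ones, with 0.30 between the nearest values. The means were 6.79 ± 0.11 and 6.15 ± 0.24 (SD, n = 3), a log2 difference of -0.64 ± 0.14 (SE), or 1.56-fold lower. The spread among the older retinas came from retina 1, which was the lowest.

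The other Apex1 probe sets carry a suffix that marks probes able to match further transcripts, and both gave smaller differences. The brightest, 1437715_x_at, read 7.93, 8.19 and 8.31 at 3 months and 7.74, 7.68 and 7.85 at 8 months. The ages were 0.08 apart, and the log2 difference was -0.38 ± 0.12 (SE). The third, 1456079_x_at, read 6.75, 6.57 and 6.88 against 6.10, 6.24 and 6.37, 0.20 apart, with a log2 difference of -0.49 ± 0.11 (SE). Within an age, the lowest retina of the brightest probe set was not the lowest in the other 2, whereas the ages were apart in all 3. In bulk RNA, fewer cells of a type and less RNA per cell cannot be told apart. The 3 probe sets read the same 6 RNA samples and are not replicates of each other.

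**Figure D1:**
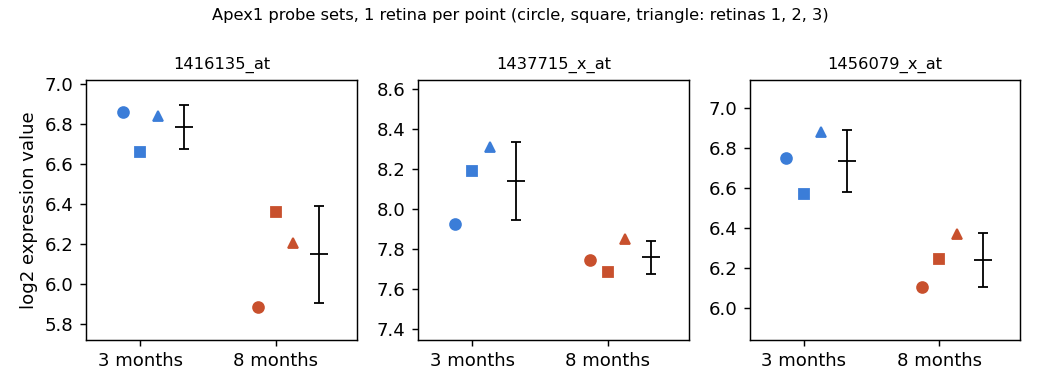
Log2 expression values of the 3 Apex1 probe sets in retinas of 3 months (blue) and 8 months (orange), 1 point per retina, with the mean and SD (n = 3) as a black bar beside each age. In 1416135_at the older retinas sit between 5.88 and 6.36 and the younger ones between 6.66 and 6.86, and the ages are also apart in the other 2 panels.

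Osgep, which shares the interval printed above, was read by 2 probe sets above the filter. The brighter stood at 8.50, 8.12 and 8.10 at 3 months and at 7.99, 7.82 and 8.12 at 8 months, so the ages overlapped at 8-month retina 3. Its log2 difference was -0.26 ± 0.14 (SE) and was not called (limma, Benjamini-Hochberg adjusted p = 0.414). The dimmer differed by -0.13 ± 0.20 (SE) with overlapping ages (limma adjusted p = 0.771).

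Among the glycosylases, the largest difference was that of Ung, which removes uracil from DNA. Ung read 6.59, 6.80 and 6.35 in the 3-month retinas and 6.07, 5.87 and 6.43 in the 8-month ones. The ages overlapped because 8-month retina 3 lay above 3-month retina 3, while the other older retinas lay below every younger one. The log2 difference was -0.46 ± 0.17 (SE), from 6.58 ± 0.23 to 6.12 ± 0.28 (SD, n = 3), and it rests on a single probe set.

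Ogg1, the main glycosylase for oxidised guanine paired with cytosine, varied between single retinas rather than between ages. Its kept probe set read 5.34, 4.55 and 4.92 at 3 months and 4.57, 4.83 and 5.11 at 8 months. The 3-month group held both the highest and the lowest value, and the log2 difference was -0.10 ± 0.22 (SE). It ranged from -0.29 without 3-month retina 2 to 0.10 without 3-month retina 1, and was also above 0, at 0.03, without 8-month retina 1. A further Ogg1 probe set stayed between 2.71 and 2.91 in the 6 arrays, below the filter.

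Neil1, which excises oxidised pyrimidines, was close to the filter. It read 4.07, 4.59 and 4.22 at 3 months and 3.98, 4.49 and 4.14 at 8 months, a log2 difference of -0.09 ± 0.18 (SE) with the ages interleaved. It ranged from -0.23 without 8-month retina 2 to 0.06 without 3-month retina 2, and was 0.02 without 8-month retina 1. Nthl1, another glycosylase for oxidised pyrimidines, read between 2.77 and 2.81 in all 6 arrays, within 0.04 of itself. Mutyh, which removes adenine opposite oxidised guanine, read 3.34, 3.30 and 3.45 at 3 months and 3.51, 3.00 and 3.31 at 8 months. Readings of this size lie near the floor that the preprocessing gives to weak signals, so differences of Nthl1 and Mutyh could not be measured on these arrays.

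Polb, the polymerase that fills the short gap, was nearly level or slightly higher at 8 months. Its brightest probe set read 8.33, 8.46 and 8.24 at 3 months and 8.34, 8.40 and 8.52 at 8 months. The log2 difference was 0.08 ± 0.09 (SE), with overlapping ages. The other 2 kept Polb probe sets differed by 0.04 ± 0.10 and 0.22 ± 0.15 (SE), the latter mostly through 8-month retina 2 at 5.51.

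Xrcc1, the scaffold that holds polymerase beta and ligase III at the break, had the widest range of the kept probe sets, 1.07 over the 6 arrays. It was read by a single probe set, which lay close to the filter and was lost with the filter at 6. It read 4.50, 4.66 and 5.09 at 3 months and 4.18, 4.02 and 4.83 at 8 months, so 8-month retina 3 exceeded both 3-month retinas 1 and 2. The log2 difference was -0.41 ± 0.24 (SE), 1.32-fold lower. Without 8-month retina 3 it was -0.65, without 8-month retina 2 or 3-month retina 3 it was -0.24, and without both of the retinas rich in lens crystallins it was -0.16.

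Lig3, the ligase that seals the gap in nuclei and mitochondria and is the partner of Xrcc1, was level. Its brightest probe set read 6.61, 6.60 and 6.65 at 3 months and 6.60, 6.63 and 6.60 at 8 months, a log2 difference of -0.01 ± 0.07 (SE). This was the narrowest range of the kept probe sets, 0.05 over the 6 arrays. A further kept probe set differed by -0.03 ± 0.10 (SE), and 3 more read between 2.29 and 3.37, below the filter.

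Parp1, which binds strand breaks and attaches ADP-ribose chains that recruit Xrcc1, was also level. Its brightest probe set read 10.89, 10.94 and 10.72 at 3 months and 10.81, 10.91 and 10.90 at 8 months, a log2 difference of 0.02 ± 0.09 (SE). The other 2 kept probe sets differed by -0.03 ± 0.08 and -0.09 ± 0.16 (SE), and another, below the filter, lay between 2.36 and 2.37.

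**Figure D2:**
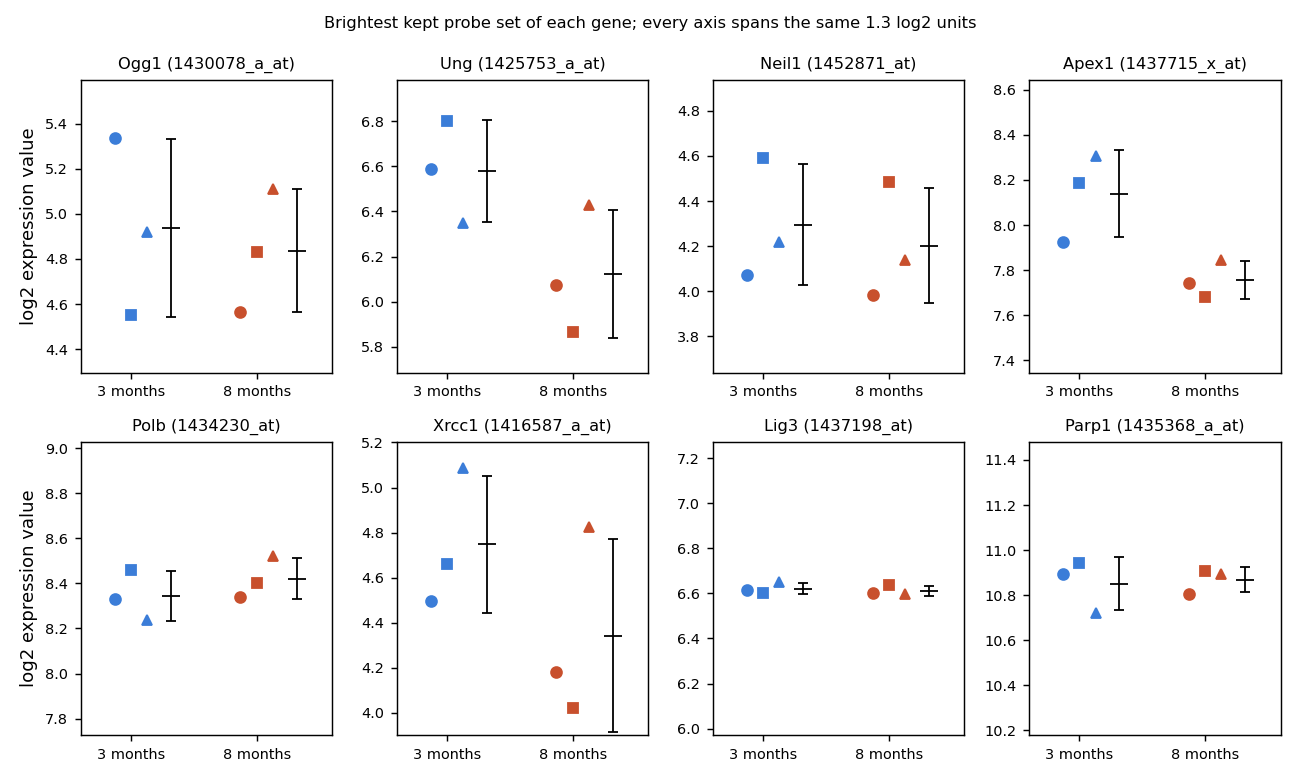
Log2 expression values of the brightest kept probe set of the 8 measured genes, 1 point per retina (circle, square and triangle for retinas 1, 2 and 3; blue for 3 months, orange for 8 months), with the mean and SD (n = 3) as a black bar; every axis has the same length in log2 units. The ages are apart for Apex1 alone; the points of Lig3 lie within 0.05 and those of Xrcc1 spread over 1.07.

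Read gene by gene through the brightest kept probe set, 6 of the 8 measured genes were lower at 8 months, against 63.5% of all 11219 genes measured. The ages did not overlap, with the older retinas lower, in 1 of the 8, Apex1, against 16.9% of all genes, and in 3 of the 15 kept probe sets, those of Apex1, against 14.9% of all kept probe sets. None of the 8 had ages apart with the older retinas higher, against 6.05% of all genes. The median log2 difference over the 8 genes was -0.10 and that over all genes -0.06. Since the age comparison chose the genes, nothing is read from these shares.

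The balance of lower and higher genes moved with the scaling of the arrays. All genes were lower in 54.7% after quantile normalization, 53.4% after cyclic loess and 44.4% after median centring, and under each of them 5 of the 8 genes were lower. Lig3 was then 0.06 to 0.07 higher at 8 months. Apex1, Ung and Xrcc1 were lower under all 3 scalings, with log2 differences no nearer to 0 than -0.30, -0.37 and -0.32.

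Among the older retinas, Ung, Xrcc1 and the brightest Apex1 probe set ran in the same order, lowest in 8-month retina 2 and highest in retina 3. The specific Apex1 probe set did not, being lowest in retina 1 and highest in retina 2. Among the younger retinas the order differed between the genes, Ung being lowest in retina 3 where Xrcc1 and the brightest Apex1 probe set were highest. Against its own mean over the 6 arrays, Apex1 stood at -0.21, -0.27 and -0.10 in the older retinas. The median of the other 7 genes stood at -0.27, 0.02 and 0.08 there, and at -0.003, 0.081 and -0.005 in the younger retinas. Among the older retinas this median was thus below 0 in retina 1 only. The mean over all 8 genes stood at -0.19, -0.13 and 0.07 in the older retinas. In 8-month retina 2, 3 of the 8 genes, Apex1 among them, had their lowest value. Without 8-month retina 1 the median log2 difference of the 8 genes was 0.01 and 4 of the 8 were lower.

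**Figure D3:**
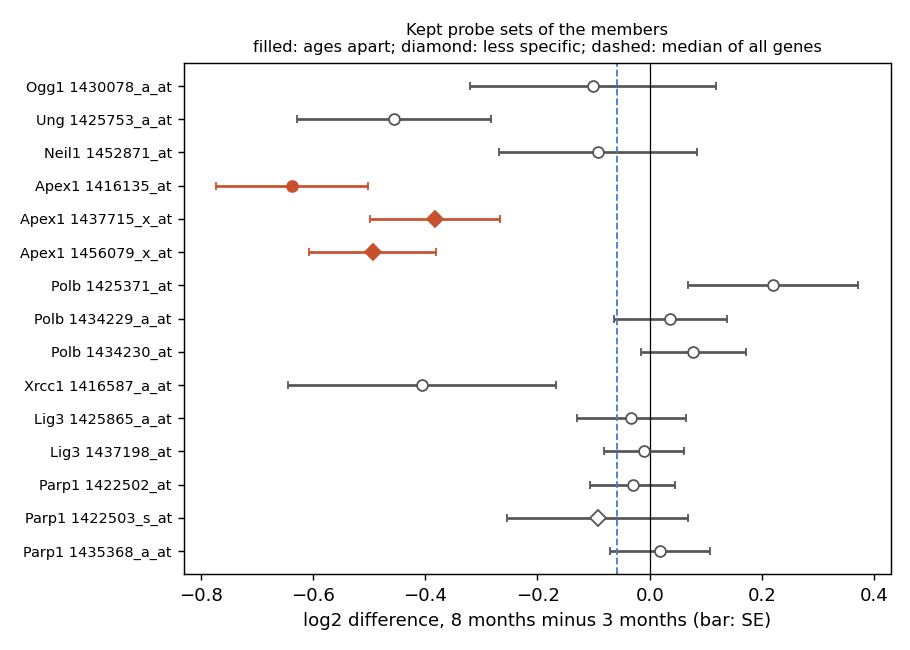
Log2 difference (8 months minus 3 months) of the 15 kept probe sets, with the SE of limma's fit as bars; filled points have ages that do not overlap, diamonds are less specific probe sets, and the dashed line is the median of all genes, -0.06. The 3 Apex1 probe sets lie between -0.64 and -0.38, Ung and Xrcc1 lie at -0.46 and -0.41 with open points, and the remaining ones lie between -0.10 and 0.22.

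The other genes of the pathway were taken from a list of 35, of which 31 were in the annotation and 27 had a kept probe set. None of the 27 was called in limma's fit over all kept probe sets (smallest Benjamini-Hochberg adjusted p = 0.263), in which 1 of 20973, or 0.00477%, was called. That probe set belonged to no repair gene, and by brightest probe set the called share of genes was 0.00891%. Among the 27, 2 lower and 0 higher genes had an unadjusted limma p under 0.05, against 11.5% lower and 3.58% higher of all genes. Of the 27, 19 were lower, with a median log2 difference of -0.10, and the ages did not overlap in 3 lower genes and 1 higher gene. The share lower was 70.4%, against 63.5% of all genes. The counts with ages apart are below the shares over all genes, 16.9% lower and 6.05% higher. The mean log2 level of the 27 genes was 6.52 to 6.58 at 8 months and 6.63 to 6.67 at 3 months, lower in every older retina. That of the 8 measured members overlapped between the ages. No such mean over all genes is given beside them.

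The 3 lower genes with ages apart were of the long-patch branch and of mitochondrial replication. Fen1, the nuclease that removes the displaced flap in long-patch repair, read 10.37, 10.11 and 10.58 at 3 months and 9.81, 9.98 and 9.97 at 8 months. Its log2 difference was -0.43 ± 0.13 (SE), without a call (limma adjusted p = 0.263), in a less specific probe set. The specific Fen1 probe set differed by -0.49 ± 0.20 (SE) with overlapping ages, since 8-month retina 3 at 6.21 exceeded 3-month retina 2 at 6.06. Rfc3, a subunit of the clamp loader that places PCNA on DNA, differed by -0.36 ± 0.13 (SE; limma adjusted p = 0.296). A dimmer kept Rfc3 probe set differed by -0.28 ± 0.12 (SE) with overlapping ages (limma adjusted p = 0.334). Polg2, the accessory subunit of the mitochondrial polymerase, differed by -0.29 ± 0.13 (SE; limma adjusted p = 0.365).

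The 1 higher gene, Neil3, a glycosylase mostly of dividing cells, lay at the filter. It read 3.69, 4.18 and 4.19 at 3 months and 4.27, 4.43 and 4.19 at 8 months, so the ages were separated only beyond the second decimal (limma adjusted p = 0.427). Smug1, Pcna and Lig1 are given for their roles and were named after their values were seen. Smug1, a further uracil glycosylase, differed by 0.20 ± 0.10 (SE) with overlapping ages (limma adjusted p = 0.403), opposite in sign to Ung. Pcna, the sliding clamp, and Lig1, the ligase of long-patch repair, differed by -0.10 ± 0.13 and 0.05 ± 0.15 (SE).

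For scale, 3 further repair pathways are set beside base excision repair. Of 20 measured genes of nucleotide excision repair, which removes bulky lesions, 17 were lower, 7 with ages apart, and the median log2 difference was -0.16. The mean log2 level of the 20 genes was 7.15 to 7.24 at 8 months and 7.35 to 7.44 at 3 months. Over all genes, 63.5% were lower and 16.9% lower with ages apart, with a median of -0.06. Its member of smallest p was Ercc3, a helicase of TFIIH, at 6.84, 6.58 and 7.08 at 3 months and 6.25, 5.83 and 5.99 at 8 months. The log2 difference was -0.81 ± 0.16 (SE; limma adjusted p = 0.183), larger than in any probe set of the 10 genes, and was not called. Ddb1, a damage-recognition subunit, and Gtf2h1, another TFIIH subunit, differed by -0.25 ± 0.08 and -0.28 ± 0.09 (SE; limma adjusted p = 0.264 and 0.276).

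Mismatch repair had 5 measured genes with a median of 0.00, and Pms1, its 1 gene with ages apart, differed by -0.02. Double-strand break repair had 16 measured genes with a median of -0.09, 12 of them lower and 2 with ages apart, Xrcc4 and Xrcc5, at -0.36 ± 0.16 and -0.25 ± 0.12 (SE; limma adjusted p = 0.354 and 0.364). Both counts are near the shares over all genes, 63.5% and 16.9%. A dimmer, less specific Xrcc4 probe set differed by -0.10 ± 0.11 (SE) with overlapping ages. The mean log2 levels of the mismatch and double-strand break lists overlapped between the ages. None of these genes was called in limma's fit. Genes with an unadjusted limma p under 0.05 numbered 6, all lower, in nucleotide excision repair and 0 in mismatch repair, with 1 higher gene in double-strand break repair, against 11.5% lower and 3.58% higher over all genes. The latter was Rad51c, a recombinase paralogue gene named here after its value was seen, at 0.47 ± 0.16 (SE; limma adjusted p = 0.281) with overlapping ages.

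**Figure D4:**
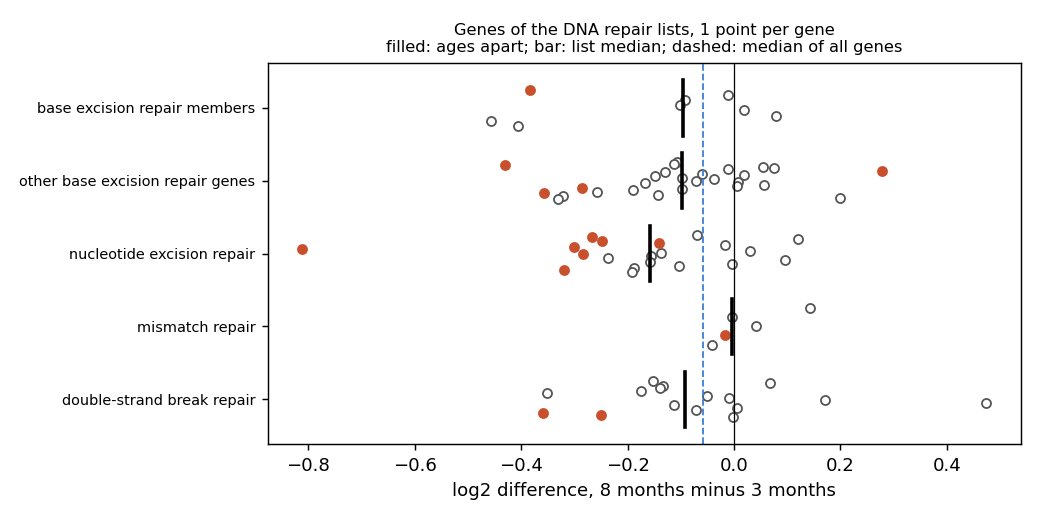
Log2 difference (8 months minus 3 months) of the measured genes of 5 DNA repair lists, 1 point per gene by its brightest kept probe set; filled points have ages that do not overlap, bars are list medians and the dashed line is the median of all genes, -0.06. The medians run from -0.16 for nucleotide excision repair to 0.00 for mismatch repair, and the leftmost point is Ercc3 at -0.81.

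Several measures of tissue makeup, and 1 of 2 measures of RNA integrity, did not overlap between the ages in the same arrays, some by small margins. No mean over all genes is given beside the list means, and 63.5% of all genes were lower at 8 months. The retinal origin was borne out by 14 of 16 rod genes, whose mean log2 level was 11.20 to 11.39 in the 6 arrays. This mean was lower in every older retina, the nearest values being 11.2526 in 8-month retina 3 and 11.2655 in 3-month retina 3. The mean of 12 of 14 ganglion cell genes was 8.10 to 8.14 at 8 months and 8.15 to 8.39 at 3 months, and that of 7 of 10 endothelial and pericyte genes 6.07 to 6.15 and 6.36 to 6.49. The mean of 6 of 14 microglia and macrophage genes was higher, 6.05 to 6.15 against 5.55 to 5.62, as was that of 9 of 11 astrocyte and gliosis genes, 5.45 to 6.30 against 5.11 to 5.36. Müller glia, pigment epithelium and proliferating cell lists overlapped between ages. Lens crystallins were high in 8-month retina 1 and 3-month retina 3, at 8.83 and 10.10, against 4.05 to 6.07 in the rest. The 3′ minus 5′ signal of the Gapdh control, a measure of RNA integrity, was 0.755 to 0.811 at 8 months and 0.707 to 0.751 at 3 months. That of actin overlapped, at 1.71 to 1.84 and 1.62 to 1.87. The part of these measures in the values of Apex1, Ung and Xrcc1 was not tested. Without the 2 crystallin-rich retinas the log2 difference was -0.48 in the specific and -0.29 in the brightest Apex1 probe set, and -0.55 for Ung.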

How the data were processed

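Retinal RNA was amplified and labelled with a NuGEN Ovation kit and hybridised to Affymetrix mouse arrays, per the labels' protocols. The deposited values are log2 expression values per probe set. The submitters' processing notes name R 1.9.0 and GCRMA 1.1.0, with no options, and scan dates were not seen. GCRMA gives weak signals a common floor, which shrinks differences of dim genes. Levels of different probe sets were compared to choose the brightest of a gene, and the rod genes were read by their level. Beyond that, levels of different probe sets were not compared. The number of arrays limits the precision.

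Of 45101 probe sets, 64 controls were left out and 20973 passed the filter. Probe sets were named from the platform annotation, where 34945 had 1 gene. The age comparison used limma 3.58.1 (lmFit, then eBayes; R 4.3.3), two-sided and without covariates, p-values adjusted by Benjamini-Hochberg over the kept probe sets and a threshold of 0.05. The fit was tested on simulated data with independent noise and added differences larger than any of the 10 genes. This cannot show how it treats smaller differences or shifts shared by many genes. Exact permutation of 3 against 3 arrays reaches p = 0.1 at best and was not used. For counts of genes, the kept probe set with the highest mean stood for its gene. Named genes were the 10 members, up to 3 genes per direction of each other repair list with ages apart and smallest p, Osgep, and the 5 genes nearest to Apex1 in pattern; Smug1, Pcna, Lig1 and Rad51c are exceptions, named after their values were seen. The members, lists and alternatives were chosen with earlier results of these data known. Alternatives were 3 scalings, no filter and a filter at 6, eye side or the replicate number in the model, other ways of reading a gene, and leaving out arrays.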

Additional observations from a re-analysis of the deposited data

How the results depend on the processing

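Apex1 was lower at 8 months under all 16 alternatives, with log2 differences from -0.49 to -0.30 when single retinas were left out. It was -0.64 without the less specific probe sets, where the gene is read by another probe set. The median over the measured members was -0.34 with eye side as a covariate, where the comparison rests on 8-month retina 1 alone, and -0.17 to 0.01 when single retinas were left out, the 0.01 being without 8-month retina 1 and the -0.17 without 8-month retina 2. The number of lower members was 4 to 7 of 8 without single retinas, and 3 of the 5 still measured with the filter at 6. It was 8 of 8 with eye side as a covariate, 7 of 8 with the mean of a gene's kept probe sets and 8 of 10 with no filter. For the other base excision repair genes the median was -0.0644 after quantile normalization, -0.0610 after cyclic loess, -0.0603 with the filter at 6, -0.0153 after median centring and -0.0537 without the crystallin-rich retinas. The medians over all genes in these settings were -0.0184, -0.0138, -0.0659, 0.0254 and -0.0499. Without any alternative the median was -0.0984 for the other base excision repair genes and -0.0577 over all genes. When single retinas were left out, the median of the other base excision repair genes was -0.153 to -0.0641. The extremes were without 3-month retinas 2 and 1. The count of called genes among them was 0 in each alternative. Ung was lower in all 16 alternatives, and Xrcc1 in all 15 in which it was measured.

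Over all probe sets, 2 were called after quantile normalization, cyclic loess or median centring and with the filter at 6. With no filter, with eye side, with the replicate block, without the crystallin-rich retinas, or without any single retina, 0 were called. At an unadjusted p under 0.05 there were 3126, against 2059 with eye side, 1567 without the crystallin-rich retinas and 1932 to 4109 without single retinas, with 1932 and 2061 without 8-month retinas 2 and 1. The cause of these shifts was not tested. The replicate block leaves each log2 difference as it was, -0.38 for Apex1. Deviations of same-numbered retinas correlated at -0.14, 0.06 and -0.28, and those of differently numbered ones at -0.29 to 0.38. With 3 retinas per age these correlations cannot show whether the numbers pair the mice, and the labels name no pairs. Nthl1 and Mutyh were too close to the floor of the values, at 2.77 to 2.81 and 3.00 to 3.51, for a difference to be read.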

Other observations

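Over the 6 arrays, the 5 genes nearest to the brightest Apex1 probe set in pattern were Bcdin3d, Zfp512b, Prdx4, Mfsd3 and Kif21b. Nearness was the root mean square distance of log2 values after each gene was centred on its own mean, among 11219 genes. The distances were 0.03 for Bcdin3d and Zfp512b, 0.04 for Prdx4 and 0.05 for Mfsd3 and Kif21b, against a median of 0.24 over all genes. Prdx4, an endoplasmic reticulum peroxidase, read 7.69, 7.95 and 8.08 at 3 months and 7.49, 7.33 and 7.63 at 8 months. The log2 differences of the 5 genes ran from -0.44 for Kif21b to -0.36 for Mfsd3, all with ages apart, as the choice by nearness to Apex1 brings about.

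No base excision repair gene was among the nearest. The closest of the other measured members was Xrcc1, at rank 4007 of 11218 genes with a distance of 0.22, followed by Lig3 at rank 4164 and Ung at rank 5028. Ogg1 was the farthest of them, at rank 10273 with a distance of 0.37. The values were centred but not scaled, so the distance depends on how much a gene varied as well as on its pattern. Lig3, whose values ranged over 0.05 only, was nearer at 0.22 than Ung at 0.23, whose log2 difference was -0.46. The distances also rest on a less specific Apex1 probe set. The ranks of the members therefore cannot show which of them followed Apex1.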
